A study of Saccharomyces cerevisiae with 222 samples.

Results

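The mitochondrial DNA (mtDNA) summits are the EdU peak summits that lay on the mitochondrial chromosome in the 6 lists called from cells labeled in S phase. They were taken as all entries assigned to that chromosome, with no use of their scores, and numbered 199 of 2434 summits in all. The CDK/DDK bypass lists held 70 of 401 and 67 of 447, the CDK bypass lists 8 of 395 and 4 of 431, and the control lists 28 of 346 and 22 of 414. The remaining 2235 summits were nuclear.

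Budding yeast cells of a W303 background that incorporates EdU, a thymidine analog, were arrested in G1 with α-factor, kept in galactose for 3 h, and released for 90 min into 100 µM EdU with 200 mM hydroxyurea (HU), an inhibitor of ribonucleotide reductase. In the CDK/DDK bypass strain (YKR1447), galactose induced Dpb11, a phosphomimetic Sld2 and Dbf4, so that replication in G1 no longer awaited cyclin-dependent kinase (CDK) or Dbf4-dependent kinase (DDK). The CDK bypass strain (YKR1445) expressed Dpb11 and the same Sld2 allele but no extra Dbf4, and the control strain (E3087) carried no bypass. All 3 groups therefore shared the arrest, the galactose, the EdU and the HU, and each had 2 replicates. A group is 1 strain. The labels number the replicates without saying whether they came from separate cultures. The p-values below therefore tell only how the values of these samples separate by group. The question was whether the sites labeled in S phase differed after G1 replication.

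Yeast mtDNA is an AT-rich molecule with few genes, long introns and long non-coding stretches. Its replication is driven by a dedicated polymerase and does not wait for CDK or DDK. The origins (ORI elements) are short repeats with GC-rich clusters. The active ones start with a promoter for the mitochondrial RNA polymerase, whose transcript can prime synthesis, while others are interrupted.

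The reference molecule (R64 assembly) is 85779 bp long and holds 8 annotated origins and 46 annotated genes, 24 of them for tRNAs. ORI2 held a summit in all 6 lists and ORI5 in 5, and both have the 9-base promoter motif ATATAAGTA at or just before their annotated start. ORI4, which has no copy of the motif nearby on its strand, held a summit in 4 lists. The motif did not go with the number of lists throughout. ORI3 also has it at its annotated start and held a summit in only 2 lists. ORI6, with 2 copies on its strand, and ORI1, with none nearby, held summits in 4 lists each. ORI7 and ORI8, also without it nearby, held none. ORI2, ORI5 and ORI4 are shown because many of the comparisons below turn on them. They are read 5′ to 3′ on the annotated strand, which is the forward strand of chrMtDNA:32209-32501 (ORI2) and chrMtDNA:82321-82600 (ORI5) and the reverse strand of chrMtDNA:56567-56832 (ORI4). The capitals at the start of ORI2 and ORI5 mark the promoter motif, and the capitals further on mark the bases at which summits were called.
ORI2: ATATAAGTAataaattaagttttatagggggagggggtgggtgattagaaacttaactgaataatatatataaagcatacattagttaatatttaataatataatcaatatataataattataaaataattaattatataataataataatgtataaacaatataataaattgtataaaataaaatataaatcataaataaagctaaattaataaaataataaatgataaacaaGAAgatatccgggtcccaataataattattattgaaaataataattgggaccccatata
ORI5: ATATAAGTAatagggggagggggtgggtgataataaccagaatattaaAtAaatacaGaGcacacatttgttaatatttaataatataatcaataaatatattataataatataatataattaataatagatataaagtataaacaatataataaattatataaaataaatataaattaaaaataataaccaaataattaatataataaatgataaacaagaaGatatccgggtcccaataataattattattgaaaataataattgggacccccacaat
ORI4: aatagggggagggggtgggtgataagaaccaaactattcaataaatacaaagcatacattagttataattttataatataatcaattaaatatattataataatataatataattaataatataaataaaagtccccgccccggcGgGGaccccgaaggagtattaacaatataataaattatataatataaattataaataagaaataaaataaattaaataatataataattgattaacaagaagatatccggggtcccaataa
In ORI2 the summits lay just before the GC-rich stretch near the 3′ end. The control replicate 2 summit of ORI5 lay at the matching place, whereas the other summits of ORI5 lay close to its promoter motif, and those of ORI4 lay within its internal GC-rich cluster.

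On either strand the promoter motif occurs 14 times in the molecule, and 4.55% of all 301-bp windows contain it. It was contained in the 301-bp windows of 0 and 1 summits of the CDK/DDK bypass lists, 1 and 1 of the CDK bypass lists and 1 and 0 of the control lists, all of them at ORI5.

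The number of mtDNA summits was highest in the CDK/DDK bypass lists and lowest in the CDK bypass lists. It was 70 and 67 in CDK/DDK bypass, 8 and 4 in CDK bypass, and 28 and 22 in control, so no 2 groups overlapped. The group means differed by 43.5 summits between CDK/DDK bypass and control, by -19 between CDK bypass and control, and by 62.5 between CDK/DDK bypass and CDK bypass. As a percent of the whole list, mtDNA summits made up 17.5 and 15 in CDK/DDK bypass, 2.03 and 0.928 in CDK bypass, and 8.09 and 5.31 in control. With 2 lists per group, an exact two-sided permutation test has 6 assignments and cannot give a p below 0.333, which is the value of each of these differences (adjusted p = 0.400 over 18 tests). Without the summits of chromosome 12 from 200 to 450 kb, a segment with many CDK/DDK bypass summits, the percent differed by 14.7 points between CDK/DDK bypass and control, against 9.52 points with them. With at most 1 summit counted per 1 kb, the first of these differences was 26 summits, and the last was 40. The numbers of nuclear summits were 331 and 380 in CDK/DDK bypass, 387 and 427 in CDK bypass, and 318 and 392 in control.

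**Figure D1:**
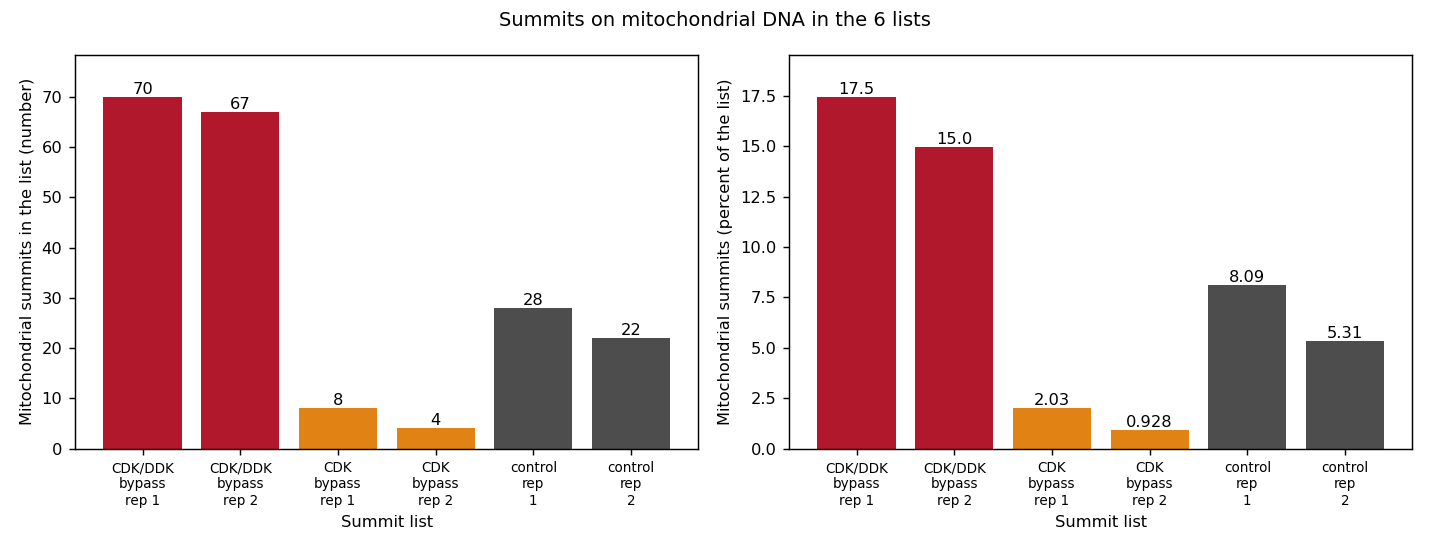
Number of mitochondrial summits (left axis panel) and their percent of all summits of the list (right panel), with 1 bar per list. The CDK/DDK bypass lists hold 70 and 67, the CDK bypass lists 8 and 4, and the control lists 28 and 22.

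mtDNA, which is 0.706% of the assembly, was called more densely than nuclear DNA in each list. Per 10 kb there were 8.16 and 7.81 mtDNA summits in CDK/DDK bypass, against 0.274 and 0.315 nuclear summits. CDK bypass lists had 0.933 and 0.466 mtDNA summits per 10 kb, against 0.321 and 0.354 nuclear ones. The excess in CDK bypass replicate 2 was slight, since its 4 mtDNA summits were 0.928% of the list, near the share of the assembly. Control lists had 3.26 and 2.56 mtDNA summits per 10 kb, against 0.263 and 0.325 nuclear ones. Thus the density on mtDNA varied far more between groups than that of the nuclear summits. A yeast cell holds many copies of mtDNA, and the lists do not give the number of reads on it.

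The score of a summit is the −log10 of its q-value. It grows with sequencing depth and with how much labeled DNA was recovered relative to input, so it is best read within a list. The median mtDNA score was 89.6 and 48.6 in CDK/DDK bypass, 51.4 and 68.0 in CDK bypass, and 22.9 and 28.3 in control. The highest was 499 and 479 in CDK/DDK bypass, 206 and 138 in CDK bypass, and 255 and 168 in control. Among all summits of their own list, these top mtDNA summits ranked 5 and 9 in CDK/DDK bypass, 103 and 132 in CDK bypass, and 133 and 154 in control. Of the 50 best summits of a list, 18 and 8 were mitochondrial in CDK/DDK bypass, and 0 in each CDK bypass and control list. Nuclear scores moved the other way: their median was 10.8 and 10.3 in CDK/DDK bypass, 24.4 and 23.1 in CDK bypass, and 121 and 46.9 in control. Median percentiles of mtDNA summits within their lists were 78.2 and 68.5 in CDK/DDK bypass, 57.7 and 62.2 in CDK bypass, and 35.4 and 44.7 in control, with no overlap. CDK/DDK bypass exceeded CDK bypass by 13.4 points, but by 6.05 points, and with overlap, once the summits of chromosome 12 from 200 to 450 kb were left out of the ranking (71.2 and 60.5 in CDK/DDK bypass, 57.6 and 61.9 in CDK bypass). The part of the nuclear scores in the rank of mtDNA summits was not tested.

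The summits were spread over most of the molecule in CDK/DDK bypass and in control, where longer stretches had none, and the 12 CDK bypass summits lay in a few places. The median distance in bp between neighboring mtDNA summits was 966 and 965 in CDK/DDK bypass, 2623 and 17615 in CDK bypass, and 1224 and 1182 in control. The longest distance between neighboring summits measured, in bp, 4866 and 5262 in CDK/DDK bypass, 28390 and 32309 in CDK bypass, and 20734 and 20719 in control. Distances were taken along the linear reference, without joining its ends. The closest neighbors were between 332 and 819 bp apart over all 6 lists. The difference in median spacing was -237.5 bp between CDK/DDK bypass and control, 8916 bp between CDK bypass and control and -9154 bp between CDK/DDK bypass and CDK bypass (exact permutation p = 0.333 each, the smallest possible, adjusted p = 0.400). Without CDK bypass replicate 1, the list with 8 summits, the second difference was 16412 bp, and without replicate 2 it was 1420 bp. These differences depended on list length and score. Between CDK/DDK bypass and control, the difference was -31.5 bp with scores of at least 5 and -46.5 bp with the 22 best-scoring summits of each list, with overlap in both cases (exact permutation p = 1 each). With 4 summits per list, the differences with CDK bypass turned, to -343.5 bp between CDK bypass and control and 7227 bp between CDK/DDK bypass and CDK bypass. Nuclear summits were farther apart, with medians, in bp, of 5558 and 5741 in CDK/DDK bypass, 13453 and 7824 in CDK bypass, and 25760 and 13491 in control.

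When the summits of all 6 lists were joined wherever neighbors lay within 250 bp, they formed 81 mtDNA sites. Of these, 80 held a summit of a CDK/DDK bypass list, 8 of a CDK bypass list and 34 of a control list. The CDK bypass lists added no site of their own, since all 8 were also called in a CDK/DDK bypass list and in a control list. Of the 34 control sites, 33 were also called in a CDK/DDK bypass list. CDK/DDK bypass lists alone held 47 sites, 28 of them in both lists. Apart from the patterns compared below, these overlaps were not counted over all chromosomes, so they are not shown to be particular to mtDNA. A missing call is not a missing signal: each peak has 1 summit here and the widths of the peaks were not used, so that adjoining peaks merged in a list would appear as fewer sites.

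**Figure D2:**
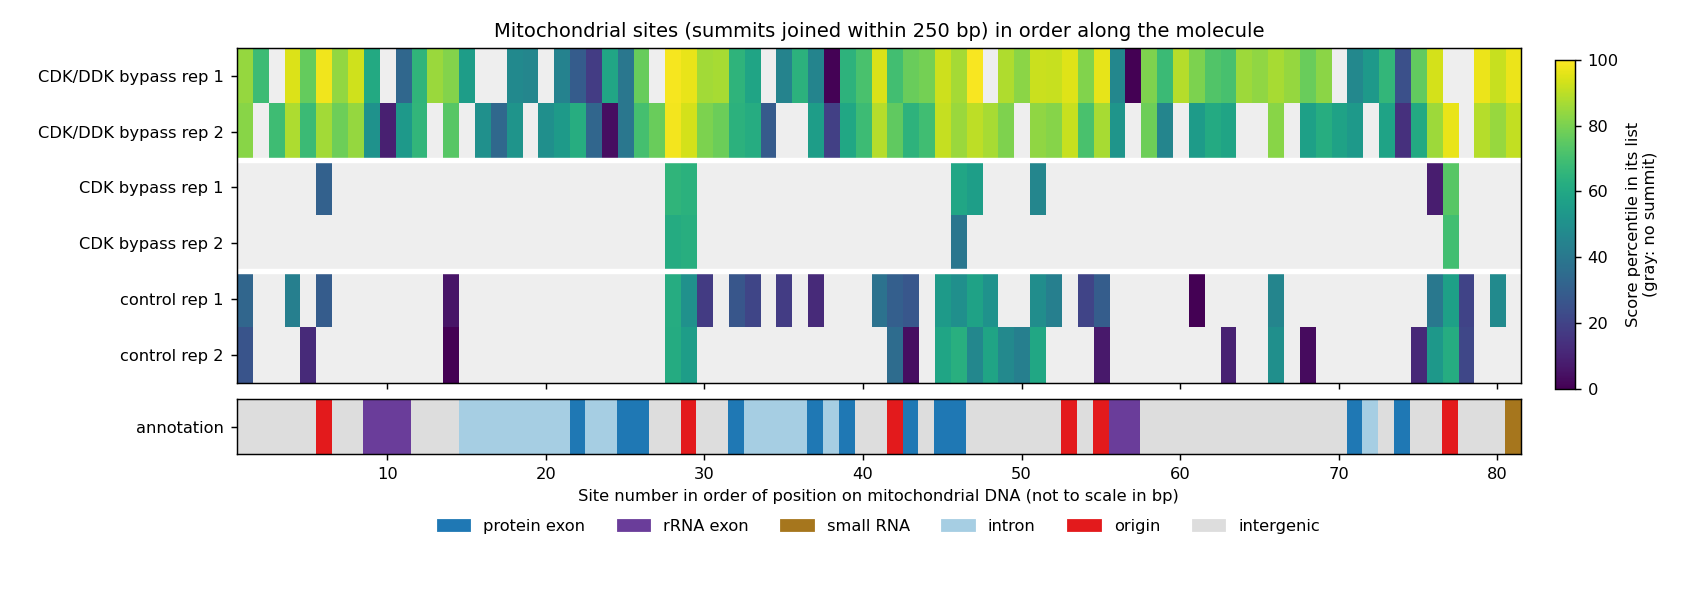
The 81 mitochondrial sites (columns) in order along the molecule, with 1 row per list and the color giving the percentile of the summit's score among all summits of its list. The lower strip gives the annotation at the middle of each site. The CDK/DDK bypass rows are nearly filled, while the CDK bypass rows hold 8 and 4 sites, each also filled in a control row.

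Counted over groups, 28 of the 81 mtDNA sites had summits of both CDK/DDK bypass lists and of neither control list, whereas 8.22% of the 1204 sites of all chromosomes did. The reverse pattern, both control lists and neither CDK/DDK bypass list, was found at 1 mtDNA site, against 7.81% of all sites. Both CDK bypass lists and neither control list was found at 0 mtDNA sites (4.49% of all sites), and both control lists and neither CDK bypass list at 9 (2.57% of all sites). Both CDK/DDK bypass lists and neither CDK bypass list was found at 50 (9.63% of all sites), and the reverse at 0 (10.3% of all sites). The mtDNA sites that set CDK/DDK bypass apart from control thus lay nearly all on the side of CDK/DDK bypass. The shares over all chromosomes include the mtDNA sites. Among the 1123 nuclear sites alone, 71 were in both CDK/DDK bypass lists and neither control list, and 93 in the reverse pattern. For CDK/DDK bypass against CDK bypass, the nuclear counts were 66, and 124 in the reverse pattern. Nuclear sites therefore leaned the other way in both of these comparisons. With equal numbers of the best-scoring mtDNA summits taken from each list, only 4 sites were in both CDK/DDK bypass lists and neither control list, and 2 were in the reverse pattern. In the same setting 0 sites were in both CDK/DDK bypass lists and neither CDK bypass list, and 1 was in the reverse pattern.

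In all 6 lists 3 mtDNA sites were called, which is close to the share over all chromosomes (2.99%). The first spans 31592 to 31627, between ATP6 and the tRNA gene tE(UUC)Q and 622 bp before ORI2 at its middle. Its scores were 498 and 479 in CDK/DDK bypass, 103 and 60.6 in CDK bypass, and 255 and 144 in control. Its summits fell at just 3 bases, 31592 (both control lists and CDK bypass replicate 1), 31626 and 31627. It was the top mtDNA summit of CDK/DDK bypass replicate 2 and of control replicate 1.

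The second, inside ORI2, spans only 32443 to 32445. Its scores were 396 and 272 in CDK/DDK bypass, 98.3 and 75.4 in CDK bypass, and 84.7 and 71.4 in control. The summits lay at bases 213 to 215 of the annotated origin in all 6 lists. CDK bypass and control scores overlapped, and both CDK/DDK bypass scores were higher.

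The third, from 49948 to 50088, lies in the last part of VAR1, which ends at 50097. Its scores were 193 and 135 in CDK/DDK bypass, 60.8 and 13.1 in CDK bypass, and 79.9 and 168 in control. Here CDK/DDK bypass and control overlapped, and the value of 168 was the top mtDNA score of control replicate 2.

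Another 4 sites were called in 5 of 6 lists. The site inside ORI5, from 82369 to 82544, scored 458 in CDK/DDK bypass replicate 2, 206 and 138 in CDK bypass, and 164 and 145 in control. It was the top mtDNA summit of both CDK bypass lists. CDK/DDK bypass replicate 1 had no summit inside ORI5, but had summits on both sides of it, at 81518 (score 319) and 83361 (score 403). The 3 others were absent from CDK bypass replicate 2. Of these, the site from 81434 to 81767, before ORI5, scored 319 and 136 in CDK/DDK bypass, 3.12 in CDK bypass replicate 1, and 28.8 and 55.2 in control.

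The site from 50505 to 50773, behind VAR1, scored 499 and 202 in CDK/DDK bypass, 42 in CDK bypass replicate 1, and 177 and 30.0 in control, and was the top mtDNA summit of CDK/DDK bypass replicate 1. The site from 53113 to 53245, in the long intergenic stretch between VAR1 and 21S_RRNA, scored 280 and 121 in CDK/DDK bypass, 18.4 in CDK bypass replicate 1, and 68.7 and 106 in control. ORI1 (4012 to 4312) held the only other site found in all 3 groups. It scored 421 and 150 in CDK/DDK bypass, 7.78 in CDK bypass replicate 1 and 16.8 in control replicate 1, with summits at 4167 and 4169. Together these 8 sites account for each of the 12 CDK bypass summits, and 5 of the 8 lay inside or within 1 kb of an origin.

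Both CDK/DDK bypass lists and both control lists shared 13 mtDNA sites, a pattern that was not counted over all chromosomes. At 12 of them both CDK/DDK bypass scores were above both control scores, and the exception was the site at the end of VAR1. Since scores depend on depth and on the share of the labeled DNA that is nuclear, this order gives the strength of the calls and not a level of synthesis.

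Sites called only in CDK/DDK bypass included some of its strongest. The 5 with the highest mean score percentile among those in both lists were in RPM1, in ORI3, behind ORI5, before 15S_RRNA and behind ORI2. The site in RPM1, the RNA subunit of mitochondrial RNase P, spans 85600 to 85606 and scored 403 and 223 (mean percentile 93.9 ± 4.37, SD, n = 2). The site in ORI3, from 54620 to 54622, scored 363 and 242 (93.4 ± 2.66). The site at 83361 to 83370, 765 bp behind ORI5, scored 403 and 185 (93.1 ± 5.81). The sites at 6159 to 6180, before 15S_RRNA, and at 34239 to 34246, behind ORI2, scored 298 and 126 (88.4 ± 6.12) and 193 and 79.8 (82.1 ± 6.63).

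The only site in both control lists and neither CDK/DDK bypass list spans 83059 to 83062 and scored 10.5 and 8.03 in control. It lies shortly before the CDK/DDK bypass summits behind ORI5, and with joining at 500 bp it was no longer separate.

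Among the 8 annotated origins, ORI2 held summits in 6 lists, ORI5 in 5, ORI1, ORI4 and ORI6 in 4, ORI3 in 2, and ORI7 and ORI8 in 0. ORI6 is annotated over 2701 bp, includes OLI1 and held 8 summits. Its site at 45676 to 45687 scored 53.0 and 73.1 in CDK/DDK bypass, and 17.7 and 17 in control. ORI4 scored 393 and 156 in CDK/DDK bypass, and 17 and 3.73 in control, at 56684 to 56687. ORI8 was farther than 1 kb from the nearest summit in each list, and lies in the 3.12 kb from 10873 to 13993 in which no list had a summit.

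Summits within 1 kb of an origin numbered 16 and 18 in CDK/DDK bypass (22.9% and 26.9%), 5 and 3 in CDK bypass (62.5% and 75%), and 13 and 9 in control (46.4% and 40.9%). Of all positions of the molecule, 23.4% lie so close. The CDK/DDK bypass share was thus near that of positions, and both other groups were above it. Among the 22 best-scoring mtDNA summits of each list, however, 10 and 10 were within 1 kb of an origin in CDK/DDK bypass (45.5% each), and 11 and 9 in control (50% and 40.9%). Among the 4 best-scoring of each list, 3 and 4 were so close in CDK/DDK bypass, 3 and 3 in CDK bypass, and 2 and 2 in control. No test was made of these shares, which were chosen after the summits had been seen.

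**Figure D3:**
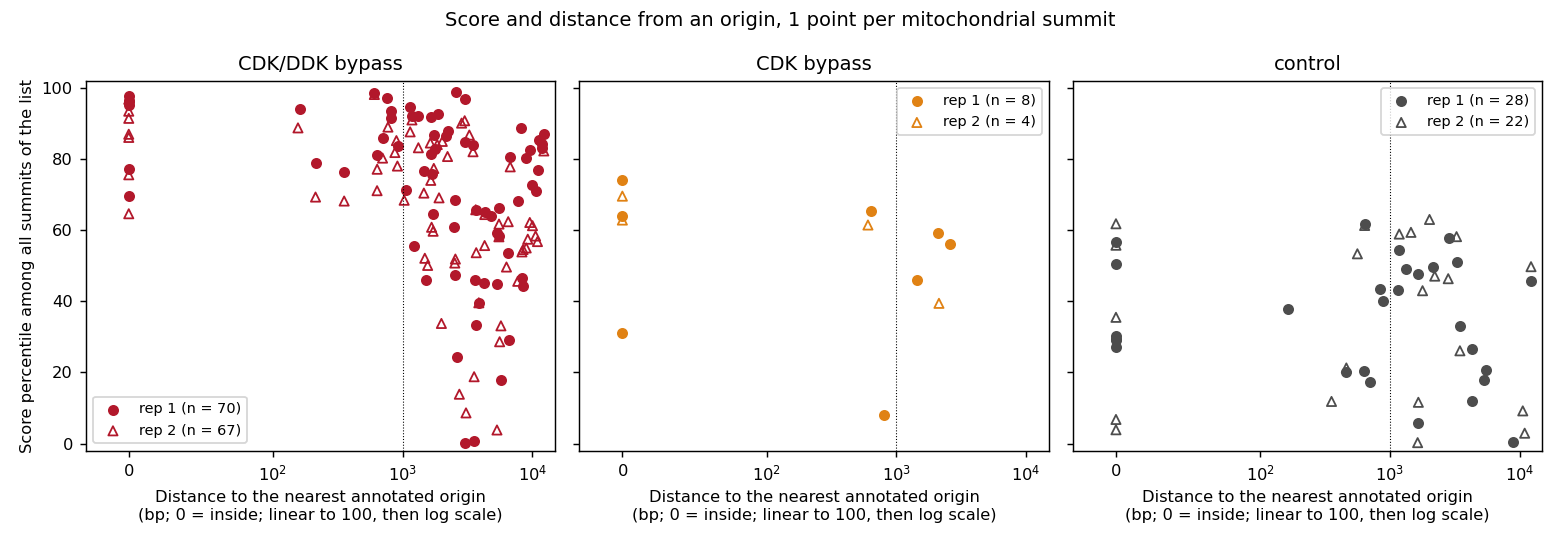
Percentile of each mitochondrial summit's score among all summits of its list (vertical axis) by its distance in bp to the nearest annotated origin (horizontal axis, linear to 100 bp and then logarithmic), with 1 panel per group and 1 symbol per replicate. CDK/DDK bypass summits over 1 kb from an origin range over nearly all percentiles, and those inside origins lie at 64.7 or higher.

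Annotated genes, introns included, cover 39.4% of mtDNA. Inside them lay 27 of 70 and 26 of 67 summits in CDK/DDK bypass (38.6% and 38.8%), 1 of 8 and 1 of 4 in CDK bypass (12.5% and 25%), and 7 of 28 and 3 of 22 in control (25% and 13.6%). The mean difference between CDK/DDK bypass and control was 19.4 percentage points, between CDK/DDK bypass and CDK bypass 19.9 points (exact permutation p = 0.333 each, adjusted p = 0.400), and between CDK bypass and control -0.568 points (p = 1). With the 22 best-scoring summits of each list the order of the means turned, with overlap. In genes lay 3 and 3 in CDK/DDK bypass (13.6% each), and 5 and 3 in control (22.7% and 13.6%), a difference of -4.55 points. The difference between CDK/DDK bypass and CDK bypass turned to -25 points with 4 summits per list. Of these, 0 and 0 lay in genes in CDK/DDK bypass, and 1 and 1 in CDK bypass. With introns not counted as genic, CDK/DDK bypass differed from control by 7.62 points (exact permutation p = 0.333) and from CDK bypass by 4.62 points, with overlap (p = 1), and CDK bypass from control by 3.00 points.

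**Figure D4:**
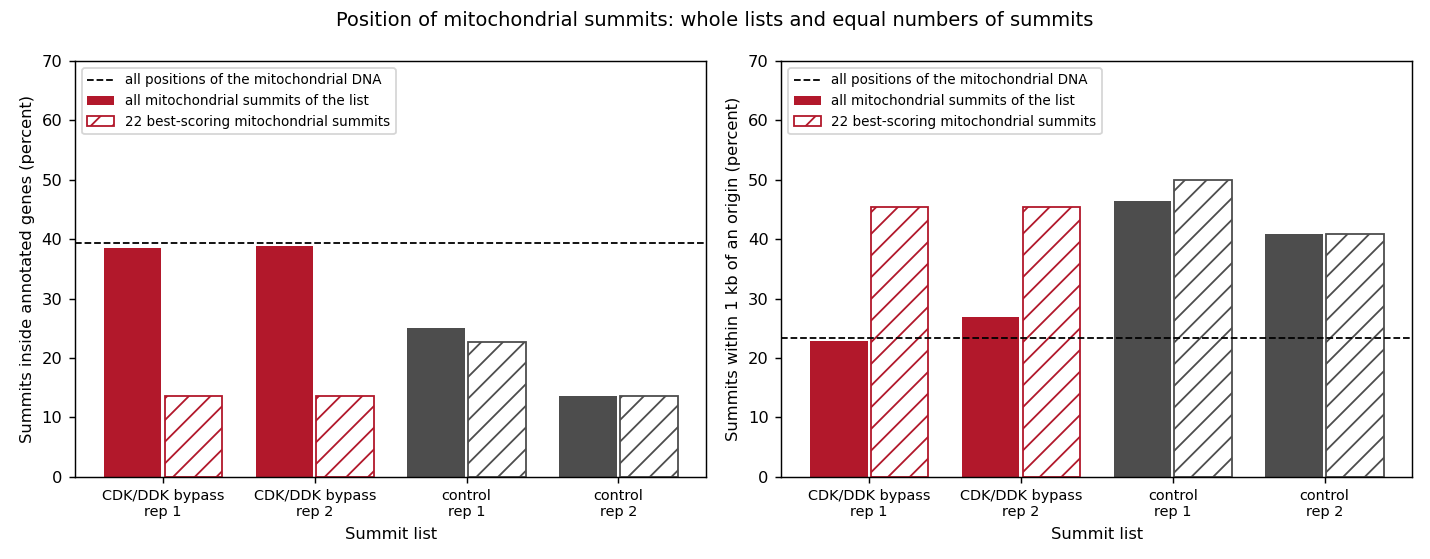
Percent of mitochondrial summits inside annotated genes (left panel) and within 1 kb of an origin (right panel) for all summits of a list (filled) and its 22 best-scoring ones (hatched), with the share of all mtDNA positions as a dashed line. In CDK/DDK bypass the whole lists lie near the dashed lines, and the best 22 lie at 13.6% and 45.5%, beside the control lists.

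The genic summits of CDK/DDK bypass had lower scores at the median, although those in RPM1 (403 and 223) and at the upstream site of VAR1 (286 and 233) were among the strongest. The median was 13.3 and 15.6, against 166 and 82.7 for the summits outside genes in the same lists. In control it was 15.2 and 103, against 28.8 and 26.6 outside genes, so that the replicates differed in direction. Likewise, the 31 and 31 CDK/DDK bypass summits with a control summit within 250 bp had a median percentile of 86.0 and 82.1, and the 39 and 36 others had 66.3 and 57.8. Of those others, 20 of 39 and 20 of 36 were in genes, against 7 of 31 and 6 of 31 of the summits with a control summit. Genes cover 39.4% of mtDNA positions.

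Of the 8 protein genes of the respiratory chain and ribosome, 7 held a summit in each CDK/DDK bypass list, 1 in each CDK bypass list, and 3 and 2 in the control lists. COX1, the large catalytic subunit gene of cytochrome c oxidase, spans 12884 of the 85779 bp of the molecule, with 8 annotated exons. It held 8 of 70 and 9 of 67 summits in CDK/DDK bypass, a share below that of its length. Their top scores, 32.8 and 35.8, were below the lowest of the 22 best-scoring mtDNA summits (188 and 103). The CDK bypass and control lists, all of them shorter, held 0 each. ATP6, a subunit of the ATP synthase, held 1 and 1 in CDK/DDK bypass (81.3 and 57.3) and 0 elsewhere, and ATP8 held 0 in all lists. COB, the cytochrome b gene, spans 7108 bp. It held 7 and 6 in CDK/DDK bypass, a share slightly above that of its length. CDK bypass had 0 and 0 there, and control 4 and 0, so the control replicates differed. OLI1, the proteolipid subunit of the ATP synthase, held 1 in each CDK/DDK bypass and control list (82.8 and 39.1 in CDK/DDK bypass, 15.7 and 3.11 in control). COX2 and COX3, the other core subunits of cytochrome c oxidase, held 1 summit each in CDK/DDK bypass lists only, with scores of 12.8 and 16.3 for COX2 and 5.22 and 4.02 for COX3.

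VAR1 was the only protein gene with summits in all 6 lists, 2 in each CDK/DDK bypass and control list and 1 in each CDK bypass list. Its upstream site, from 49106 to 49108, scored 286 and 233 in CDK/DDK bypass, and 135 and 103 in control. The intron reading frames, which encode maturases, reverse transcriptases and homing endonucleases, overlap the exons before them in the annotation. Of 10 such frames, counted from start to end, 9 spanned summits in each CDK/DDK bypass list, 0 in each CDK bypass list, and 3 and 0 in control. Nested frames share summits, and only the frame SCEI in the 21S_RRNA intron spanned none in any list. Within their own annotated exons, the COX1 frames AI2 and AI5_ALPHA also held no summit in any list. The frame AI3 held none there in CDK/DDK bypass replicate 1. Introns make up 21.5% of the molecule and held 15.7% and 14.9% of the CDK/DDK bypass summits, so their share was below that of positions. The ribosomal RNA genes 15S_RRNA and 21S_RRNA held 4 and 4 summits together in CDK/DDK bypass (5.71% and 5.97% of the lists, with 5.76% of the molecule in rRNA exons) and 0 in the other, shorter lists. None of the 24 tRNA genes, 2.14% of the molecule, held a summit.

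Long stretches had no control summit, and the longest ran 20.7 kb from 10873 to 31592 across ORI8, COX1, ATP8, ATP6 and ORI7. Genes fill 66.7% of it. In CDK/DDK bypass it held 9 and 11 summits, with a median score of 12.5 and 12.7, and their median percentile was 45.9 and 50.1, against 81.5 and 72.6 for the mtDNA summits elsewhere. CDK bypass had 0 summits in it. Of the 3 other stretches over 5 kb, the 9.28 kb from 71387 to 80671 held 6 and 7 CDK/DDK bypass summits, with a median percentile of 60.0 and 57.5, against 80.4 and 70.8 elsewhere. The 9.10 kb from 56687 to 65791, with 21S_RRNA, held 6 and 3, with 74.3 and 52.1, against 78.2 and 68.8. The 6.69 kb from 4167 to 10858 held 6 and 6, with 74.7 and 59.7, against 78.2 and 69.1, and 1 summit of CDK bypass replicate 1. The percentiles of CDK/DDK bypass replicate 1 were thus only slightly lower in these last stretches. Within the stretch with 21S_RRNA, the 3.72 kb from 59848 to 63572 had no summit in any list.

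The base composition of the summits was compared in 301-bp windows centered on them. The median GC content was 22.3% and 22.6% in CDK/DDK bypass, 20.6% and 14.6% in CDK bypass, and 23.4% and 17.1% in control, and over all such windows of mtDNA the median was 16.9%, with a quartile range from 11.6% to 22.3%. CDK/DDK bypass and control overlapped (difference 2.16 percentage points, exact permutation p = 1). The sign rested on control replicate 2, since without it the difference was -0.997 points. CDK bypass and control also overlapped (-2.66 points, p = 0.667), and CDK/DDK bypass exceeded CDK bypass by 4.82 points (p = 0.333), or by 1.83 points without CDK bypass replicate 2, whose 4 summits had the 14.6%. Nuclear summits had a median of 35.2% and 39.2% in CDK/DDK bypass, 36.5% and 37.5% in CDK bypass, and 37.2% and 38.9% in control, near the 38.3% of the nuclear genome.

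Summit positions repeated closely between lists. The 199 summits lay at 159 different bases. In the CDK/DDK bypass pair, 56 of 70 and 56 of 67 summits had a partner within 250 bp in the other list, and these partners were a median of 5 bp apart, with 13 at the same base. Of the CDK bypass summits, 4 of 8 and 4 of 4 had a partner in the other list, at a median of 22.5 bp. In control, 15 of 28 and 15 of 22 did, at a median of 10 bp. As a percent of both lists, replicates agreed at 81.8 in CDK/DDK bypass, 66.7 in CDK bypass and 60.0 in control. Positions within 250 bp of a summit made up 40.4% and 38.5% of mtDNA in CDK/DDK bypass, 4.66% and 2.34% in CDK bypass, and 16.3% and 12.6% in control. For nuclear summits of the same pairs the agreement was 39.9% in CDK/DDK bypass, 56.8% in CDK bypass and 47.0% in control.

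**Figure D5:**
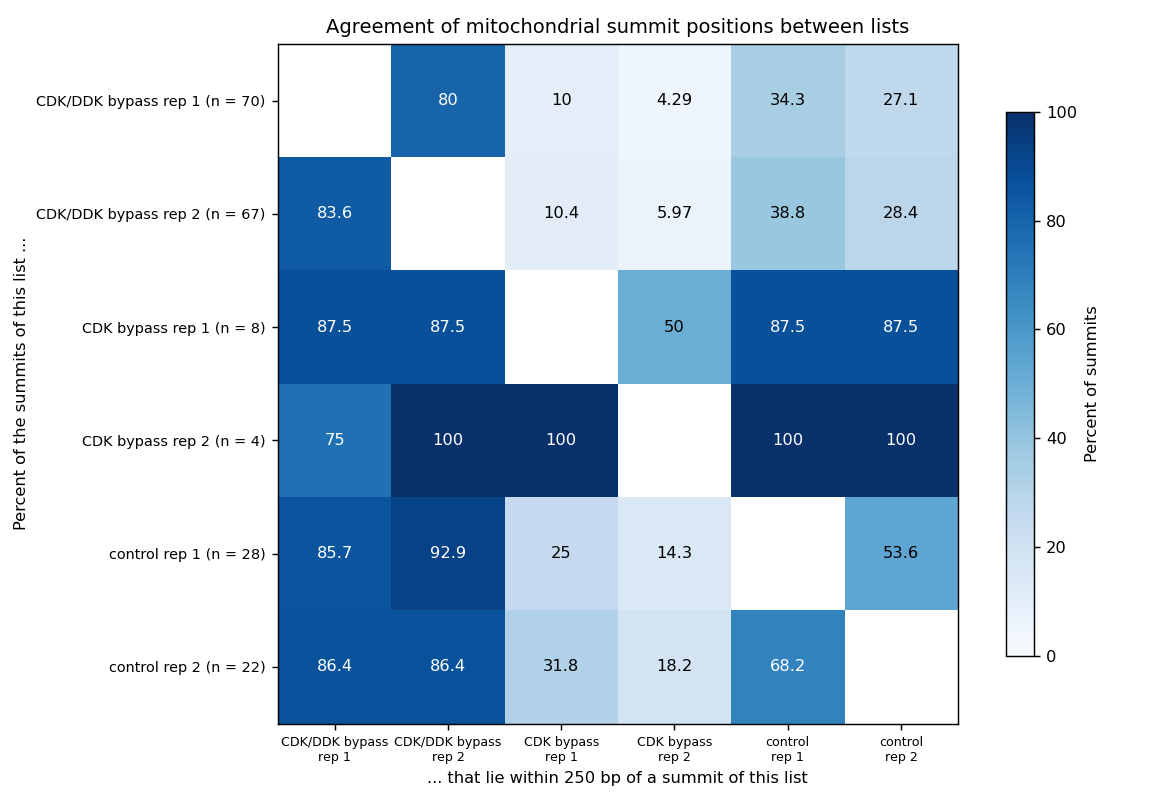
Percent of the mitochondrial summits of each list (rows) with a summit of another list (columns) within 250 bp. Rows of the short CDK bypass and control lists are high against the CDK/DDK bypass columns (75% to 100%), and the CDK/DDK bypass rows are low against the CDK bypass columns (4.29% to 10.4%).

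Between groups the overlap has to be read as a share of each list. Of the CDK/DDK bypass summits, 27.1% to 38.8% had a control summit within 250 bp, while 85.7% to 92.9% of the control summits had a CDK/DDK bypass summit there. Of the CDK/DDK bypass summits, 4.29% to 10.4% had a CDK bypass partner, against 75% to 100% of the CDK bypass summits in reverse. Of the CDK bypass summits, 87.5% to 100% had a control partner, against 14.3% to 31.8% of control summits. With equal numbers of best-scoring summits, the mean agreement was 59.1% between CDK/DDK bypass and control, 50% between CDK/DDK bypass and CDK bypass, and 62.5% between CDK bypass and control, instead of 46.9%, 14% and 35.3%.

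Scores of partnered summits were ranked alike in the CDK/DDK bypass replicates (Spearman's rho 0.923 over 56 partners) and in the control replicates (0.789 over 15). Between CDK/DDK bypass and control, rho was 0.589 to 0.829 over 19 to 26 partners. CDK bypass replicate 1 had 7 partners in each list of the other groups, with rho of 0.214 and 0.679 for CDK/DDK bypass and 0.929 and 0.571 for control, and replicate 2 had too few. These are descriptions across sites of the same libraries, which share base composition and mapping, and the sites are not replicates.

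Repeats are a limit to mapping on mtDNA. A summit was taken as uniquely mappable where each 75-base stretch covering it, the length of a read, occurred once in the nuclear and mitochondrial reference. This held for 192 of 199 summits, against 98.9% of mtDNA positions. The 7 others lay in ORI2 (6 summits, 92% of stretches unique) and ORI5 (the control summit at 82544, 81.3%). The strains are W303 and the reference is S288C, and the part of differences between these mitochondrial genomes in the positions was not tested.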

How the data were processed

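EdU-labeled DNA from cells labeled in S phase was analysed in 6 samples, 2 for each of CDK/DDK bypass, CDK bypass and control. The 216 remaining samples, total DNA included, were not analysed here. According to the study's methods and the submitters' processing notes, the authors aligned paired-end reads to sacCer3 with BWA (0.7.17-r1188), processed them with SAMtools (1.12) and deepTools (3.5.1), and called peaks sample by sample with MACS2 (2.2.7.1), using each sample's total DNA for background. The methods state a limit of 0.1 on the q-value and default parameters. A mapping-quality filter for the peak calls was not given in the sources used here. The deposited lists give 1 summit per peak, with the −log10 of its q-value as score. The lowest score in any list was 1.31, above the 1.30 of a q-value of 0.05. The methods give only an approximate read number, alike for all samples. The exact depth per sample is unknown here, and summits therefore carry no counting interval.

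Coordinates are those of R64, the sequence also named sacCer3, with its annotation of genes and ORI features, and are counted from 1. Sequences of some further sites are not reported here. A position counted as genic within a gene's start and end, introns included. Scores were turned into percentiles within a list. Sites were summits of all 6 lists joined where neighbors lay within 250 bp, and lists were compared at the same distance. GC content was taken in 301-bp windows. Group means were compared by exact two-sided permutation tests over 6 assignments, with Benjamini-Hochberg adjustment over 18 tests. Described sites were those called in at least 5 of 6 lists, in at least 1 list of each group, in both control and neither CDK/DDK bypass list, the 5 with the highest mean percentile in both CDK/DDK bypass lists only, the top summit of each list, and all CDK bypass summits.

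Alternatives were scores of at least 2 or 5, leaving out each replicate, same-numbered replicates as blocks, 1 summit per 1 kb, chromosome 12 from 200 to 450 kb left out (a segment chosen in earlier work on these lists), GC windows of 50 or 500 bp on each side, introns not counted, distances of 100, 500 and 1000 bp, windows of 5 kb on each side, and equal list lengths. Equal lengths for the genic share, GC content and spacing, and the shares near origins, were added after seeing the data. The members, lists and sites were chosen with earlier results of these data known. Python 3.11.15 with numpy 2.4.6, scipy 1.17.1 and pandas 2.3.3 was used, and the functions were tested on simulated lists with known shared sites.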

Additional observations from a re-analysis of the deposited data

Results flagged for a closer look

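Against the mean of the control lists, all CDK/DDK bypass lists and all CDK bypass lists lay on opposite sides in 3 measures. These measures are not independent, since the percent of the list and the spacing both depend on the number of mtDNA summits. The number of mtDNA summits was above control in CDK/DDK bypass (70 and 67) and below it in CDK bypass (8 and 4), a difference of 62.5 between the bypass groups. The percent of the list on mtDNA differed between them by 14.7 points (17.5 and 15 in CDK/DDK bypass, 2.03 and 0.928 in CDK bypass). The median spacing differed by -9154 bp (966 and 965 bp in CDK/DDK bypass, 2623 and 17615 bp in CDK bypass). Each difference had an exact permutation p of 0.333, the smallest that 2 lists per group allow. With 4 summits per list the difference in spacing turned to 7227 bp.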

How the results depend on the processing

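Summit number, percent of the list, and rank kept their direction in each of their 75 alternative values, and no test could pass 0.05. For many of these values the direction was fixed in advance. No groups overlapped in these measures, so leaving out a replicate could not turn a difference, and the replicate block returns the same difference of means. Only the other alternatives could have turned it. Leaving out a replicate turned the GC difference between CDK/DDK bypass and control (-0.997 to 5.32 points) and the differences between CDK bypass and control in GC (-5.81 to 0.498 points) and genic share (-6.82 to 5.68 points). The genic share of CDK bypass against control also turned when introns were not counted (3.00 points). Equal list lengths left 22 summits per list for CDK/DDK bypass against control, and 4 per list where CDK bypass was compared. The genic share then turned to -4.55 points for CDK/DDK bypass against control and -25 points against CDK bypass. Spacing turned to 7227 bp for CDK/DDK bypass against CDK bypass and -343.5 bp for CDK bypass against control.

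Agreement and site counts depended on the distance and the list lengths. Agreement between CDK/DDK bypass and control was 40.3% with scores of at least 5, 62.9% at 1000 bp, 98.9% with windows of 5 kb and 59.1% with equal lengths. For CDK/DDK bypass with CDK bypass it was 24.3% at 1000 bp, 73.9% with windows of 5 kb and 50% with equal lengths. For CDK bypass with control it was 25.1% at 100 bp, 54.6% at 1000 bp, 85.7% with windows of 5 kb and 62.5% with equal lengths. Between replicates it was 89.1%, 97.8% and 100% in CDK/DDK bypass at 500 bp, 1000 bp and windows of 5 kb, 91.7% in CDK bypass with windows of 5 kb, and 82% and 100% in control at 1000 bp and windows of 5 kb.

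At 1000 bp, 11 sites were in both CDK/DDK bypass lists and neither control list, 21 in both CDK/DDK bypass and neither CDK bypass list, and 5 in both control and neither CDK bypass list. With windows of 5 kb each of these counts was 0. Sites in both control and neither CDK/DDK bypass list numbered 0 at 500 bp, at 1000 bp and with windows of 5 kb. With equal lengths, 4 sites were in both CDK/DDK bypass and neither control list (reverse 2), 1 in both CDK bypass and neither control list (reverse 0), and 0 in both CDK/DDK bypass and neither CDK bypass list (reverse 1). Leaving out a replicate, whose group then needed 1 call, gave 1 to 3 sites for control without CDK/DDK bypass, 0 to 1 for CDK bypass without CDK/DDK bypass, and 9 to 21 for control without CDK bypass. Wider joining leaves fewer separate sites by construction, and the cause of the other shifts was not tested.

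Replicate numbers are shared by the groups but are not shown to pair samples. With the replicate number as a block, each difference keeps its value by construction (43.5, -19 and 62.5 summits, for example), and the smallest possible p was 0.5. Same-numbered agreement was 45.8% for CDK/DDK bypass with control, 14.6% for CDK/DDK bypass with CDK bypass and 34.8% for CDK bypass with control.

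The lists hold no read counts, so the number of mtDNA copies, the labeling per copy and the nuclear share of the labeled DNA cannot be told apart.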
